A study of Mus musculus with 18 samples.

Results

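Wild-type (WT) liver at 36 weeks (36W) after diethylnitrosamine (DEN) was compared with WT liver at 2 days (2D) after it, to ask which genes of the young liver are high again late and which are not. The comparison uses 6 of the 18 RNA sequencing libraries of the study, 3 of WT 36W and 3 of WT 2D, found by their labels. DEN is a carcinogen that hepatocytes activate and that alkylates DNA. The whole study has 6 groups of 3 libraries: WT and NRF2 knockout (KO) mice at 2D, 4 weeks (4W) and 36W after DEN, and NRF2 is the transcription factor encoded by Nfe2l2 that drives antioxidant and detoxification genes. All mice were of a mixed B6;129P2 background and all groups had received DEN, so no library shows liver without it. The age at treatment, the sex and the feeding state are not given in the sources used here. Weeks after DEN and age increase together, so the 2 cannot be told apart. For their source material, the 36W samples are labelled liver tissue and the 2D samples liver tumor, and the protocol for RNA names tumours throughout, so how much tumour a 36W library holds is unknown. The sample titles carry a code with the letter B at 2D and the letter A at 4W and 36W; its meaning is not given, and it cannot be told apart from time.

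The liver of newborn mammals leaves a fetal programme within weeks. Fetal hepatocytes secrete alpha-fetoprotein (Afp) and express imprinted growth genes such as Igf2 and H19, and after birth repressors such as Zhx2, Zbtb20 and Zfhx3 silence Afp while metabolic enzymes, carriers and male- or female-biased genes rise. Liver tumours of mice and humans can express some fetal genes again, and Afp and the proteoglycan Gpc3 are used as markers of human hepatocellular carcinoma.

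All values are counts per 1000000 counts (CPM) scaled with TMM factors, and log2 fold changes are of WT 36W over WT 2D with their standard error (SE) unless another pair is named. A call means an adjusted p under 0.05 over all genes tested, by the quasi-likelihood test of edgeR. The 6 libraries had 17.6 to 24.2 M counts, and 3 counts, the floor below which a gene is treated as not detected, equal 0.124 to 0.17 CPM. Whether libraries of a group came from separate animals is not stated, so the p-values measure a spread between samples. That spread was estimated over all 18 libraries, 4W and KO included, and not from these 6 alone. Of 14877 genes tested, 3073 were higher at 36W (20.7%) and 2546 were lower (17.1%), which is 37.8% in either direction. The median log2 fold change was -0.01. A fit of the 6 libraries alone called 1645 of 13826 genes higher and 1341 lower. Scaled by library size alone, without TMM, 1451 were higher and 5612 lower, and the share of calls that were higher was 20.5% instead of 54.7%, because that scaling shifted all genes by a median of -0.39. Albumin alone took 12.5% to 17.2% of counts at 36W and 6.9% to 7.44% at 2D, and mitochondrially encoded genes took 2.64% to 3.98% at 36W and 5.15% to 5.34% at 2D.

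Libraries of both groups stood apart. At 2D, replicate 3 had 146 genes over 4-fold above both other libraries and 3 below, among genes averaging at least 5 CPM, and replicates 1 and 2 had 0. Among the 146 were Eln, the elastin gene, with 87.0, 104 and 1045 CPM at 2D, and the duct keratin Krt19, both chosen after their values were seen, Krt19 with 2.69, 1.70 and 65.8 CPM. At 36W, replicate 1 had 54 genes over 4-fold above both others and 33 below, replicate 2 had 14 and 30, and replicate 3 had 18 and 15. The hepatocyte markers Alb, Apoa1, Ttr, Apob and Hnf4a were present in every library, with Alb at 132900, 168120 and 204930 CPM at 36W and 58873, 62897 and 60766 CPM at 2D. The Y-linked gene Kdm5d was at 19.8, 17.8 and 20.5 CPM at 36W and 15.5, 12.9 and 13.5 CPM at 2D, and Xist, made by the inactive X chromosome of females, was below the filter on low counts with at most 0.176 CPM in these libraries.

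**Figure D1:**
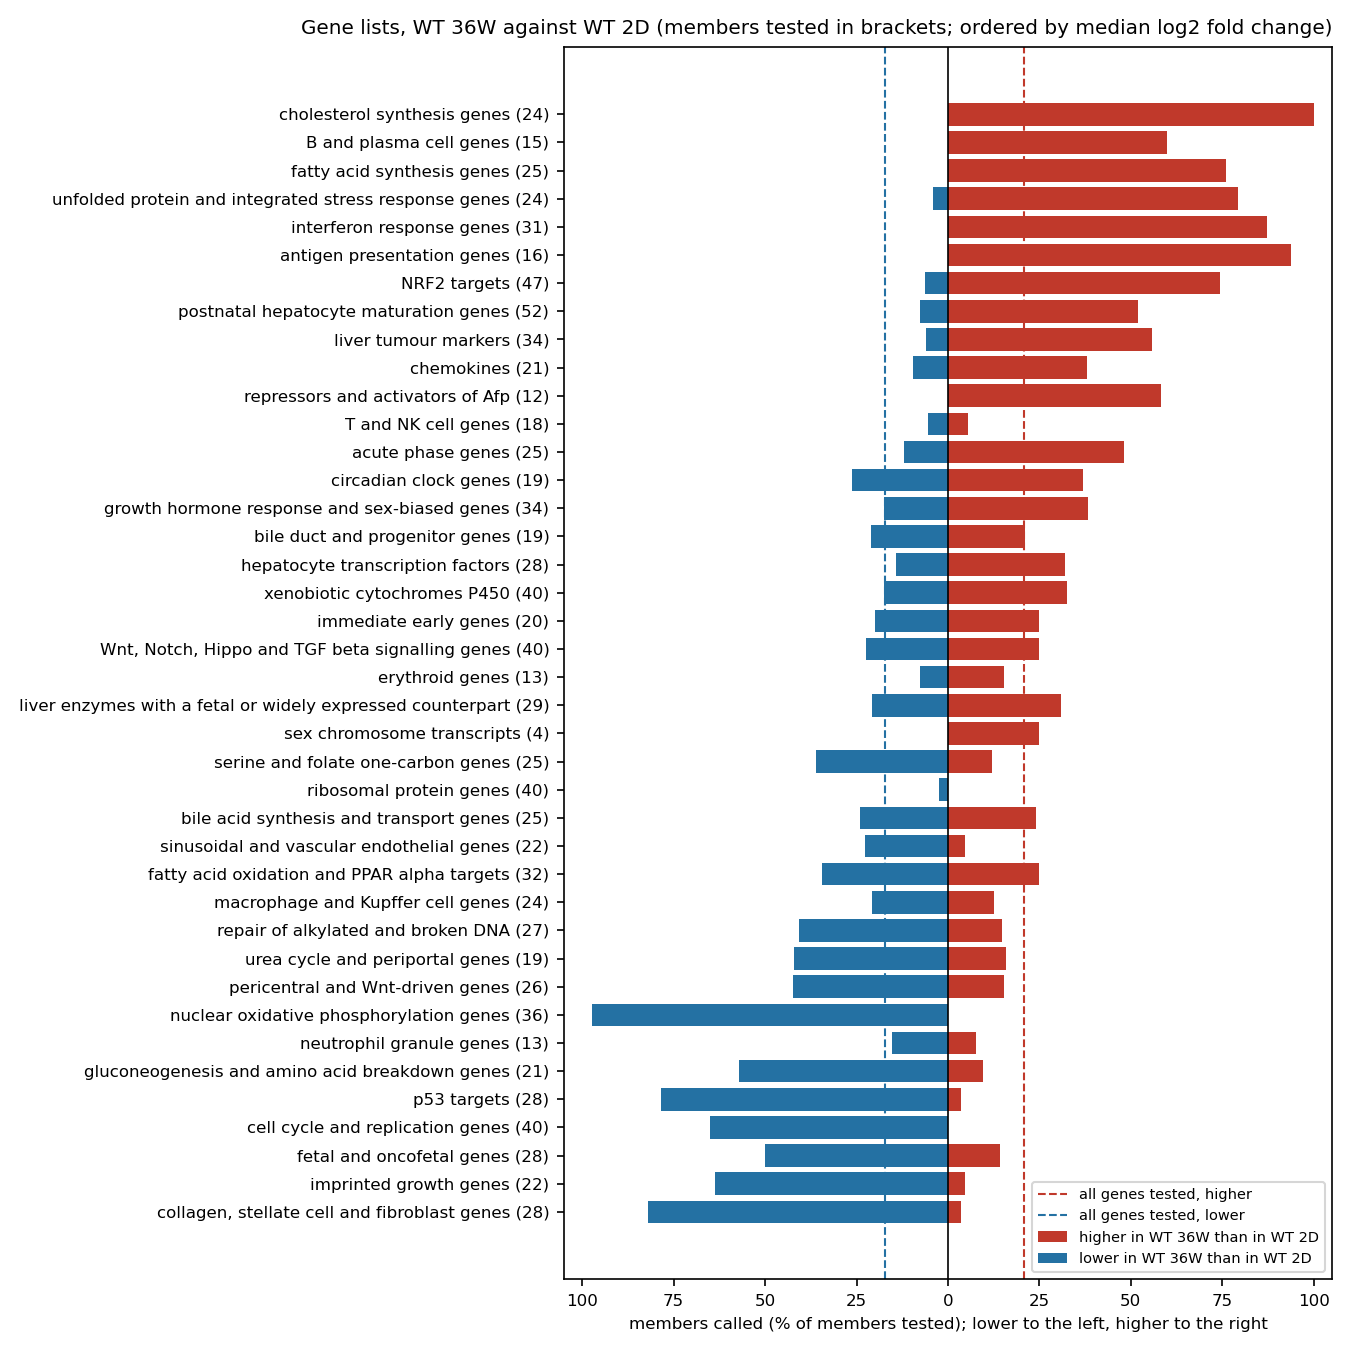
Share of tested members of 40 gene lists that were higher (red, to the right) or lower (blue, to the left) in WT 36W than in WT 2D at an adjusted p under 0.05, in % of members tested, with the number tested in brackets and lists in order of their median log2 fold change. Dashed lines mark the shares over all 14877 genes, 20.7% higher and 17.1% lower; all 24 cholesterol synthesis genes were higher and 23 of 28 collagen, stellate cell and fibroblast genes were lower.

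Imprinted growth genes were mostly lower at 36W. Of 22 tested, 14 fell and 1 rose, with a median log2 fold change of -1.90. Igf2, the fetal growth factor (chromosome 7, 142650766 to 142666816, minus strand, mm10), had 2.37, 0.741 and 3.42 CPM in the 36W libraries against 1450.2, 1795 and 1166 CPM in the 2D libraries. Its neighbour H19, a non-coding RNA of the same imprinted cluster, had 5.53, 7.76 and 59.7 CPM at 36W against 3359.5, 4933 and 3933 CPM at 2D. Neither gene overlapped between the groups: Igf2 fell by 9.42 on the log2 scale (SE 0.82, adjusted p = 7.1e-07) and H19 by 7.4 (SE 0.96, adjusted p = 2.7e-05).

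Peg3, a zinc finger gene expressed from the paternal copy, had 4.70, 3.66 and 4.30 CPM at 36W against 344, 432 and 148 CPM at 2D (log2 fold change -6.19, SE 0.38, adjusted p = 1.7e-08). Grb10, an adaptor that restrains insulin and IGF receptor signalling, had 12.2, 16.6 and 11.3 CPM against 86.4, 79.0 and 103 CPM (-2.74, SE 0.26, adjusted p = 1.2e-06). Plagl1, which encodes a zinc finger transcription factor of the imprinted network, had 1.84, 4.25 and 2.79 CPM against 15.9, 12.6 and 22.3 CPM (-2.52, SE 0.35, adjusted p = 4.9e-05). In all 3 genes the highest 36W library lay below the lowest 2D library. Zim1, which neighbours Peg3, had no count in any of the 3 libraries at 36W and 3.19, 2.5 and 2.92 CPM at 2D, so that it was at least 18.3-fold lower, taking 3 counts per library as the floor. Sgce, Peg10, Mest, Ndn, Nnat and Gnas fell by between 0.94 and 4.10 on the log2 scale. The largest of these falls was that of Ndn, whose 2D level was far highest in replicate 3. Ndn had 0.395, 0.346 and 0.127 CPM at 36W against 1.93, 1.40 and 12.2 CPM at 2D.

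Some falls rested on single libraries, often 2D replicate 3. Dlk1, a surface protein of fetal hepatoblasts, had 0.22, 0.445 and 0.0633 CPM at 36W and 0.449, 1.40 and 27.3 CPM at 2D, and without 2D replicate 3 its change was -1.87 with an adjusted p of 0.18. Gnas also lost its call without it (-0.59, adjusted p = 0.13) and without 36W replicate 2 (-0.78, adjusted p = 0.091), and Mest, a hydrolase-like gene, did so when 2D replicate 3 and 36W replicate 1 were both left out (-0.83, adjusted p = 0.094). Nnat lost its call without 2D replicate 1 (adjusted p = 0.0501), 36W replicate 1 (0.0625) or 36W replicate 2 (0.0984). The member that rose was Impact, a regulator of the eIF2 kinase GCN2, with 16.1, 15.3 and 22.5 CPM against 12.3, 13.3 and 11 CPM (0.56, SE 0.16, adjusted p = 0.013; not called with library size alone or without 36W replicate 3). Meg3, Rian and Mirg, maternally expressed RNAs of the chromosome 12 cluster, were not called: Meg3 ranged over 2.59, 14.9 and 41.7 CPM at 36W and 23.4, 24.3 and 31.4 CPM at 2D, with the lowest 36W value in replicate 1. Igf2r, the receptor that clears IGF2, was at 91.8, 124 and 109.8 CPM and 111, 77.8 and 94.4 CPM, also without a call.

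Among 28 tested fetal and oncofetal genes, a list that shares Igf2, H19, Dlk1 and Peg10 with the imprinted genes, 14 fell and 4 rose, or 2 without 36W replicate 2, with a median of -1.80. Afp, the main secreted protein of fetal hepatocytes (chromosome 5, 90490714 to 90508907, plus strand, mm10), had 40.0, 169 and 179 CPM at 36W against 6417, 4289.7 and 1567 CPM at 2D (-4.98, SE 0.71, adjusted p = 6.0e-05), and the groups did not overlap. At 4W Afp had 2.93, 4.35 and 7.42 CPM, and the 36W level was above that (4.73, adjusted p = 2.8e-04). Afp was therefore lower than in young liver and higher than at 4W, with 36W replicate 1 lowest of the 3.

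Cyp3a16, a cytochrome P450 of newborn mouse liver, had 0.0878, 0.148 and 5.0 CPM at 36W against 121, 94.1 and 119 CPM at 2D (-6.14, SE 0.95, adjusted p = 1.4e-04), though reads can be shared with other Cyp3a genes. Lpl, lipoprotein lipase, which young liver makes and adult hepatocytes hardly do, had 157, 213 and 375 CPM against 954, 850.1 and 859 CPM (-1.84, SE 0.29, adjusted p = 1.5e-04). Sall4, a stem cell transcription factor, fell to 0, 0 and 0.127 CPM, against 2.42, 2.5 and 0.696 CPM (adjusted p = 5.9e-04), with the 36W libraries at or under the floor. Igf2bp2, an RNA-binding protein, was at 4.96, 0.346 and 0.506 CPM and 5.52, 9.51 and 8.91 CPM (-2.0, SE 0.67, adjusted p = 0.028), and its call was lost without any of 3 libraries (adjusted p 0.0648 to 0.0865). The growth factors Mdk and Ptn and the epithelial adhesion gene Epcam were highest in 2D replicate 3. Mdk had 0.395, 0.445 and 0.443 CPM at 36W against 2.2, 3.15 and 15.3 CPM at 2D and kept its call without that library, while Ptn did not (-0.66, adjusted p = 0.75). Epcam had 1.05, 0.89 and 1.46 CPM at 36W and 4.13, 4.40 and 53.8 CPM at 2D, and its change was -1.87 (adjusted p = 0.054) without that library and 36W replicate 1. The RNA-binding and chromatin genes Lin28a, Lin28b, Igf2bp1, Trim71 and Hmga2 were below the filter on low counts, and Hmga2 had at most 0.696 CPM at 36W and 0.494 CPM at 2D.

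Other oncofetal genes were not lower at 36W. Gpc3, a membrane proteoglycan that binds growth factors (chromosome X, 52272426 to 52613950, minus strand, mm10), had 26.4, 334 and 339.5 CPM at 36W against 84.0, 93.0 and 92.5 CPM at 2D. The groups overlapped because 36W replicate 1 was below all 2D libraries while the other two were over 3 times above them, and the change was not called (1.38, SE 0.62, adjusted p = 0.091). Without that library Gpc3 was called higher at 36W than at 2D (1.91, adjusted p = 0.0013). Igdcc4, an immunoglobulin-domain protein of fetal liver also known as Nope, had 37.5, 56.8 and 56.7 CPM against 34.3, 41.1 and 20 CPM (0.66, SE 0.31, adjusted p = 0.1). Scd2, the stearoyl-CoA desaturase of young tissues, rose: it had 375, 383 and 665 CPM at 36W against 29.6, 30.1 and 91.2 CPM at 2D (3.24, SE 0.40, adjusted p = 1.7e-05), without overlap. Bex2, a small X-linked adaptor, was called higher (1.98, 6.08 and 10.6 CPM against 2.02, 2.45 and 2.41 CPM, 1.43, SE 0.52, adjusted p = 0.0403), but its groups overlapped and its call was lost when any single library other than 36W replicate 1 was left out (adjusted p 0.0653 to 0.254). Acsl4 and Sox9 were the other members that rose, Acsl4 with 198, 309 and 272 CPM against 191, 170.4 and 77.6 CPM (0.83, SE 0.24, adjusted p = 0.013). The call of Acsl4 was lost without 36W replicate 2 (adjusted p = 0.0569) and with library size alone (0.44, adjusted p = 0.118).

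The promoters of Afp and Gpc3 are shown because these genes stood at different places at 36W. They are the 250 bases before each gene's start in RefSeq (GRCm38.p6), at chr5:90490464-90490713, plus strand for Afp and chrX:52613975-52614224, minus strand for Gpc3. Capitals mark CCAAT on either strand, the letters bound by NF-Y, and in Afp also GTTAAT, a motif found in promoters of liver genes.
Afp: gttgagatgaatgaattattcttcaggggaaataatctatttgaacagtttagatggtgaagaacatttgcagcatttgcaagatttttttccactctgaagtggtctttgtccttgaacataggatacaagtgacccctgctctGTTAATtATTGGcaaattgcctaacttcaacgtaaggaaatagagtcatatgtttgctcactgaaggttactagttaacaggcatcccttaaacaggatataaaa
Gpc3: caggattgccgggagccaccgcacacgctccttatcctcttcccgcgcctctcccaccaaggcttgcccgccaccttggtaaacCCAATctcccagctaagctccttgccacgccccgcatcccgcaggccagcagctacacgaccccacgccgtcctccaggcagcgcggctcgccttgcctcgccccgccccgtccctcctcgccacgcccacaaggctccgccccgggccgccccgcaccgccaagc
GTTAAT stood in 2 of the 20 fetal and oncofetal genes with a promoter in the table, Afp among them, and in 8.24% of all 27025 genes, counting windows of 300 bases from 250 before to 50 after a start and both strands. CCAAT stood in 10 of the 20 and in 41.1% of all genes. These matches are letters in a window and show no binding.

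The level at 4W places the early genes further, and the 3 pairs of times share libraries, so their values are given side by side only. Between WT 2D and WT 4W, 18.6% of genes were called higher at 2D, 19.1% lower and 37.7% in either direction. Between WT 36W and WT 4W, 11.9% were called higher at 36W and 9.13% lower. Of the 46 tested imprinted, fetal and oncofetal genes, 33 were higher at 2D than at 4W. Of these 33, 19 were lower at 36W than at 2D and not above 4W, among them Igf2, H19, Peg3, Grb10, Plagl1, Lpl and Cyp3a16. The same placing held for 50.5% of all 2761 genes that were higher at 2D than at 4W. Peg3 was even lower at 36W than at 4W (17.7, 15.9 and 7.88 CPM at 4W, log2 fold change of 36W over 4W -1.71, adjusted p = 0.0017). Afp and the cell cycle inhibitor Cdkn1c were below 2D and above 4W; Cdkn1c had 25.1, 30.3 and 42.8 CPM at 2D, 2.93, 3.27 and 2.47 CPM at 4W and 4.22, 6.67 and 5.25 CPM at 36W.

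A further 8 were above 4W and not called against 2D: Gpc3, Igdcc4, Bex1, Prom1, Sox4, Hmga1, Igf2r and Gab1. Gpc3 had 1.90, 1.43 and 3.58 CPM at 4W, and 36W exceeded it by 6.68 on the log2 scale (adjusted p = 5.1e-05). Igdcc4 had 0.598, 0.511 and 0.781 CPM at 4W (36W over 4W 6.32, adjusted p = 3.8e-07), and all its 36W libraries lay above every 4W library. Bex1, an adaptor of neural and fetal tissue, had 20.5, 15.5 and 8.91 CPM at 2D, 0.217, 0.614 and 0.195 CPM at 4W and 0, 6.92 and 6.46 CPM at 36W. Its 36W replicate 1 had no count while the other two exceeded every 4W library. Hmga1, a chromatin protein of dividing cells, had 30.8, 34.4 and 23.7 CPM at 2D, 14.3, 14.8 and 19.9 CPM at 4W and 30.9, 25.3 and 26.8 CPM at 36W. Scd2 and Bex2 were above both times, and Cd24a and Cd34 were called in neither comparison.

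Over all 2761 genes that were higher at 2D than at 4W, 50.5% were below 2D and not above 4W at 36W, 2.03% were below 2D and above 4W, 17.5% were above 4W and not called against 2D, 4.27% were above both, and 25.6% were called in neither. The 19 members of the imprinted and fetal lists below 2D and not above 4W stand beside the share of 50.5%. The 8 above 4W without a call against 2D stand beside 17.5%, and the 2 above both times beside 4.27%. The members were not tested against these shares. Without 36W replicate 1, 19 genes were below 2D and not above 4W, with Igf2bp3 among them and Ptn not. Gpc3 was then above both times, Meg3 was above 4W without a call against 2D, and Gab1 was called against neither. Without 2D replicate 3, 14 were below 2D and not above 4W, Acsl4 was above both, Bex2 was not called against 2D, and Dlk1, Ndn, Epcam, Ptn, Igf2bp2, Sox4, Cd24a and Cd34 were not called higher at 2D than at 4W. With both left out, 15 genes were below 2D and not above 4W, Gpc3, Scd2, Bex2 and Acsl4 were above both, Bex1 joined Afp and Cdkn1c, and Meg3 was above 4W without a call against 2D. These counts without libraries were added after the data were seen.

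**Figure D2:**
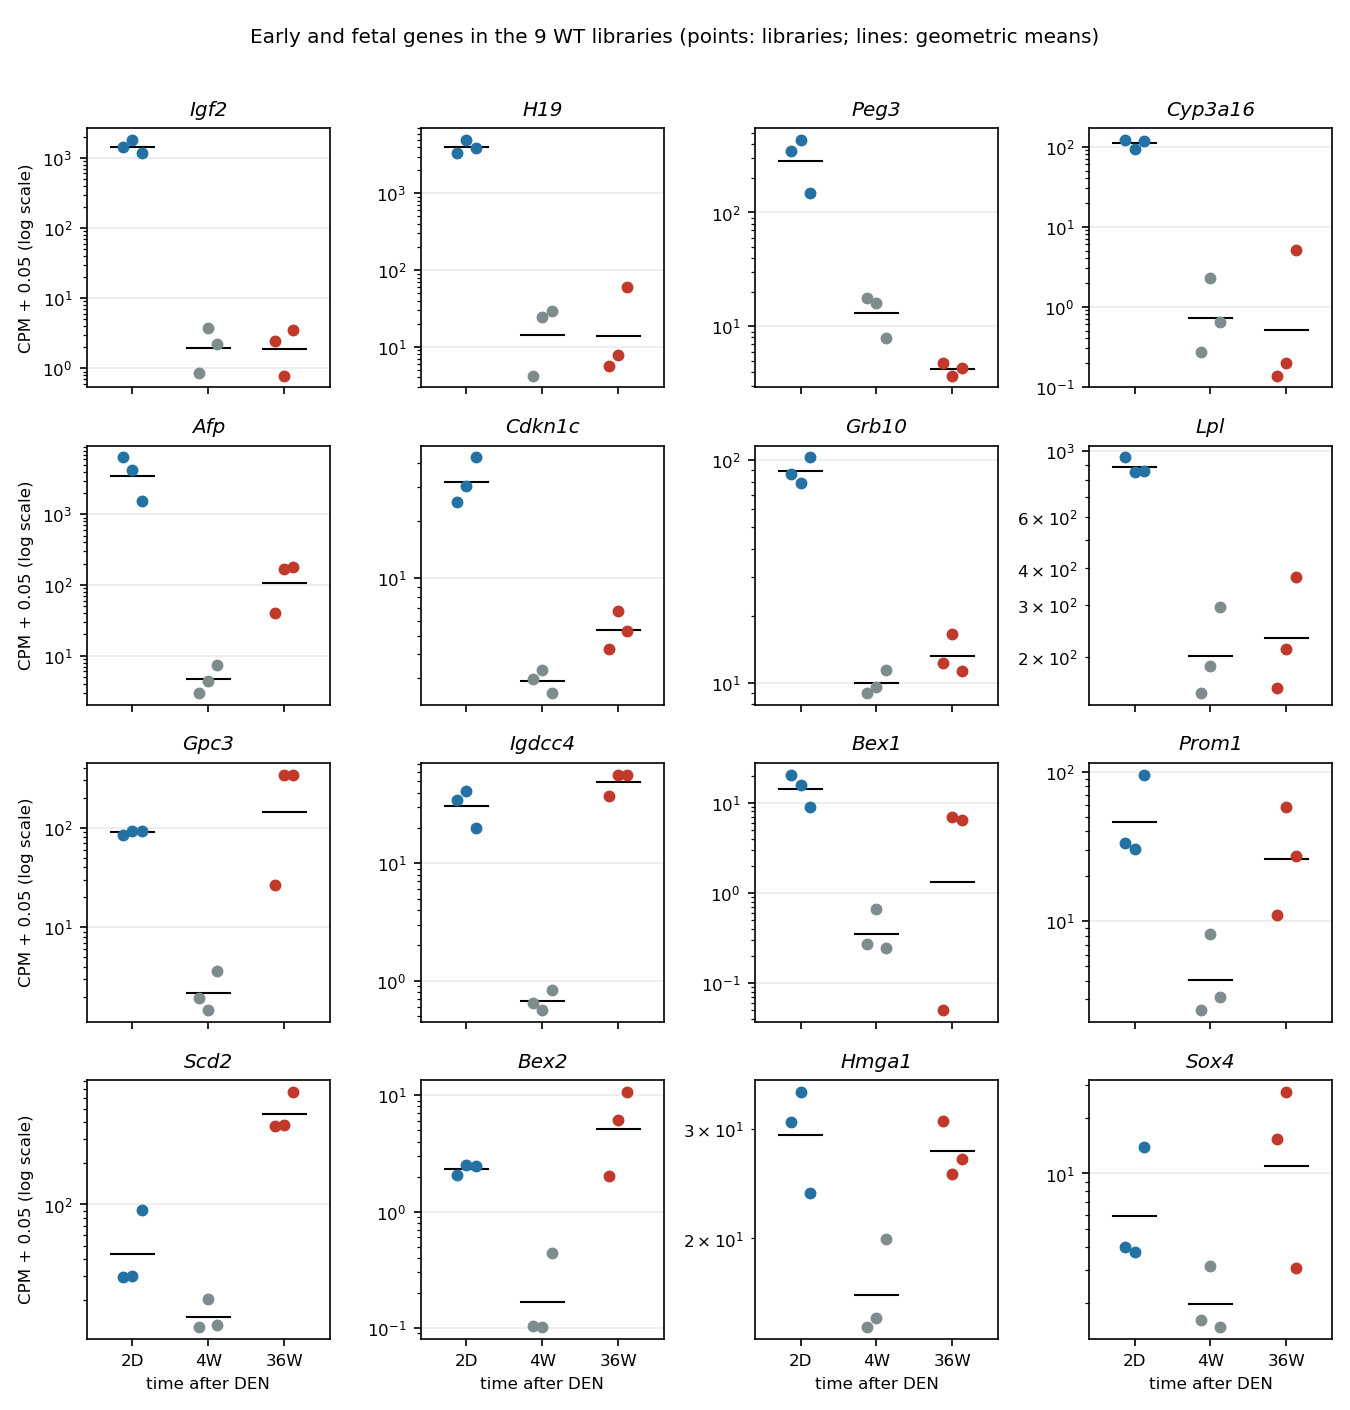
CPM + 0.05 on a log scale of 16 imprinted, fetal and oncofetal genes in the 9 WT libraries at 2D (blue), 4W (grey) and 36W (red) after DEN, 1 point per library, with a line at the geometric mean. Igf2, H19 and Peg3 stay low at 36W, Afp lies between 4W and 2D, and Gpc3, Igdcc4 and Scd2 are at or above their 2D level except in 36W replicate 1 of Gpc3.

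Genes outside the imprinted and fetal lists showed the same placings, above 4W and either above 2D or not called against it. Those named here were chosen after their values were seen, among the 12 of each placing with the smallest p of 36W over 4W. Cd63, a tetraspanin of late endosomes and exosomes, had 123, 124 and 121 CPM at 2D, 11.2, 10.9 and 13.8 CPM at 4W and 139.9, 184 and 167 CPM at 36W. Mthfd1l, the mitochondrial formate-producing enzyme, had 14.2, 16 and 12.2 CPM at 2D, 1.41, 1.84 and 2.08 CPM at 4W and 8.78, 29.3 and 28.2 CPM at 36W. Neither was called between 36W and 2D. Cd63 only just missed the threshold (0.42, SE 0.16, adjusted p = 0.051), and all its 36W libraries lay above all 2D libraries, while the groups of Mthfd1l overlapped. Gldn, gliomedin, an extracellular matrix protein of nodes of Ranvier, was above both times with 1.35, 1.45 and 1.25 CPM at 2D, 0.0543, 0.256 and 0.846 CPM at 4W and 154, 117 and 109.7 CPM at 36W, a change of 6.55 against 2D (adjusted p = 1.5e-07). Cd9, another tetraspanin and a member of the macrophage list, was also above both, with 47.5, 63.3 and 54.2 CPM at 2D, 20.1, 19.8 and 20.3 CPM at 4W and 75.4, 69.1 and 99.96 CPM at 36W. The call of Cd9 against 2D was lost with library size alone (0.17, adjusted p = 0.276) and with the 6 libraries alone (0.55, adjusted p = 0.0776).

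Of 12 factors that repress or activate Afp, 7 rose and 0 fell, with a median of 0.66. The repressor Zhx2 had 23.7, 19.8 and 19.7 CPM at 36W against 8.22, 8.41 and 12.5 CPM at 2D (1.12, SE 0.16, adjusted p = 5.5e-05), and the repressor Zbtb20 had 138, 109 and 116 CPM against 55.4, 54.7 and 65.9 CPM (1.04, SE 0.16, adjusted p = 1.5e-04). Both lay above every 2D library in all 36W libraries, and neither was called between 36W and 4W (adjusted p = 0.33 and 0.24). Zfhx3, also a repressor, had 20.3, 22.7 and 15 CPM against 10.8, 11.8 and 13.4 CPM (0.70, SE 0.17, adjusted p = 0.0046) and was not called with library size alone. The activators Cebpa, Foxa1, Foxa3 and Nr5a2 rose as well: Cebpa had 633, 375 and 461 CPM against 196, 179 and 180.4 CPM (1.40, SE 0.18, adjusted p = 2.2e-05) and Foxa1 had 25.4, 26.9 and 23 CPM against 9.25, 5.95 and 7.70 CPM (1.72, SE 0.16, adjusted p = 1.3e-06). Nr5a2 was not called without 36W replicate 2 (adjusted p = 0.0573) or with library size alone (0.25, adjusted p = 0.248). Foxa2, Onecut1, Trp53 and Zhx3 were among those not called.

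Genes that rise as hepatocytes mature after birth were more often higher than lower at 36W, with 27 of 52 that rose, 4 that fell and a median of 1.21. Ces3b, a carboxylesterase, had 123, 10.7 and 38.2 CPM at 36W against 0.224, 0.15 and 0.232 CPM at 2D (8.10, SE 0.82, adjusted p = 3.1e-06). C8a, a subunit of the terminal complement complex, had 954, 354 and 594 CPM against 70.3, 91.0 and 132 CPM (2.70, SE 0.31, adjusted p = 8.5e-06), and the cortisone reductase Hsd11b1 had 356, 483 and 492 CPM against 135, 147 and 163 CPM (1.59, SE 0.16, adjusted p = 3.6e-06). None of the 3 overlapped between groups. Serpina1e, an alpha-1 antitrypsin of mice with near-identical neighbours, had 15347, 3785 and 5256 CPM against 119, 128 and 104.9 CPM (6.12, SE 0.57, adjusted p = 1.2e-06). Without 36W replicate 1, 21 members rose and 10 fell, and with limma-voom 22 rose and 6 fell.

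Among the genes named for the largest rises, Serpina12, the adipokine vaspin, had 658, 975 and 482 CPM at 36W and no count in any of the 3 libraries at 2D, so that it was at least 4990-fold higher. At 4W it had 43.8, 15.2 and 24 CPM. Of the 10 named for the largest rises, 6 were major urinary protein genes, male-biased pheromone carriers whose reads are hard to assign among near-identical copies. Mup20 had 10918, 995 and 752 CPM at 36W against 2.2, 2.80 and 1.86 CPM at 2D (10.85, SE 1.16, adjusted p = 4.9e-06), and Mup3 had 3774, 229 and 311 CPM against 0.808, 0.4 and 1.44 CPM (10.65, SE 1.14, adjusted p = 4.9e-06). Mup7, Mup11, Mup15 and Mup17 had no count at 2D and were at least 504-, 136-, 186- and 137-fold higher. In all 6 the 36W replicate 1 was by far the highest. Without it Mup20 and Mup3 had log2 fold changes of 8.58 and 8.24, and the lower limits of the others, added after the data were seen, became 65.2-, 15.6-, 23.2- and 13.5-fold. The same library was highest for the male-specific fatty acid hydroxylase Cyp4a12a, with 117, 5.09 and 3.10 CPM at 36W and no count in any of the 3 libraries at 2D, at least 297-fold higher, or 29-fold without that library. With limma-voom Mup7, Mup11, Mup15, Mup17 and Cyp4a12a were not called (adjusted p 0.105 to 0.252). At 4W Cyp4a12a had 297, 128 and 184 CPM. Mpped1, a phosphoesterase-domain gene, had 3.91, 19.7 and 3.23 CPM at 36W and no count at 2D or 4W, and was at least 63.3-fold higher, or 25.3-fold without 36W replicate 2.

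Of 34 genes of growth hormone response and sex bias, 13 rose (38.2%) and 6 fell (17.6%), with a median of 0.40. Male-biased Hsd3b5, a steroid dehydrogenase, had 44.7, 3.01 and 2.15 CPM at 36W against 0.0449, 0.05 and 0.417 CPM at 2D (6.55, SE 1.30, adjusted p = 0.00101), with a change of 3.87 without 36W replicate 1 and no call with limma-voom (adjusted p = 0.142). The sulfotransferase Sult2a1, female-biased in adult mice, had 0, 0.593 and 0.127 CPM against 124, 107 and 187 CPM (-9.15, SE 0.78, adjusted p = 5.6e-07), and Igfbp2, a growth hormone-repressed carrier of IGFs, had 388, 755 and 331 CPM against 1814, 2489.8 and 2079 CPM (-2.11, SE 0.36, adjusted p = 3.1e-04). Cyp2a4, a testosterone hydroxylase listed with the xenobiotic P450 genes, went the other way with 2954, 5365 and 10231 CPM at 36W against 14.8, 12.6 and 15.6 CPM at 2D (8.75, SE 0.72, adjusted p = 4.0e-07). It shares much sequence with Cyp2a5, which had 1166, 1229.9 and 4296 CPM against 126, 128 and 47.2 CPM (4.47, SE 0.57, adjusted p = 2.1e-05), so the split between them is uncertain. Of 40 xenobiotic P450 genes 13 rose (32.5%) and 7 fell (17.5%), with a median of 0.18. Among all genes tested 20.7% rose and 17.1% fell.

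Enzymes with a fetal or widely expressed counterpart were mixed, with 9 of 29 higher and 6 lower and a median of 0.07. Pklr, the liver pyruvate kinase, had 527, 98.7 and 198 CPM at 36W against 35.9, 56.5 and 38.6 CPM at 2D (2.65, SE 0.44, adjusted p = 2.6e-04), and Aldoc, an aldolase of brain and fetal tissues, had 25, 27.2 and 39.9 CPM against 4.80, 3.95 and 5.80 CPM (2.66, SE 0.20, adjusted p = 1.8e-07). Ldhb, the heart-type lactate dehydrogenase, fell to 2.68, 1.88 and 3.42 CPM at 36W, against 43.8, 35.1 and 20.7 CPM at 2D (-3.65, SE 0.33, adjusted p = 9.3e-07). None of these 3 overlapped, and at 4W Ldhb was as low as at 36W, with 2.17, 2.76 and 3.45 CPM.

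Cholesterol synthesis was the only list of the 40 whose tested members all rose. The 24 genes were higher at 36W, with a median log2 fold change of 3.16, and 23 of them did not overlap between the groups, where 22% of all genes were higher without overlap. Fdps, which makes farnesyl diphosphate, had 427, 516 and 389 CPM at 36W against 9.97, 10.5 and 11 CPM at 2D (5.40, SE 0.21, adjusted p = 2.4e-10). Sqle, squalene epoxidase, had 186, 343 and 389 CPM against 4.26, 2.35 and 5.06 CPM (6.29, SE 0.31, adjusted p = 2.2e-09).

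Insig1, which holds the SREBP regulators in the endoplasmic reticulum and is itself an SREBP target, had 463, 450.4 and 371 CPM against 19.7, 22.5 and 14.5 CPM (4.50, SE 0.24, adjusted p = 5.9e-09). At 4W it had 292, 366 and 326 CPM and was not called between 36W and 4W (adjusted p = 0.22). Sqle had 80.1, 120.1 and 110.0 CPM at 4W and was higher at 36W than at 4W (1.56, adjusted p = 3.8e-04). Abcg5 and Abcg8, the sterol exporters into bile, moved the other way: Abcg5 had 76.3, 117 and 114 CPM at 36W against 429, 424 and 282 CPM at 2D (-1.89, SE 0.25, adjusted p = 3.1e-05), and Abcg8 fell by 1.36 (adjusted p = 0.00101).

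The promoters of Insig1 and of Hmgcs1, cytosolic HMG-CoA synthase, are shown because sterol-regulated genes moved together. They are the 250 bases before the start (RefSeq, GRCm38.p6), at chr5:28071162-28071411, plus strand for Insig1 and chr13:119690101-119690350, plus strand for Hmgcs1. Capitals mark CCAAT on either strand and, in Hmgcs1, TCACNCCAC, the letters of a sterol regulatory element bound by SREBP. Hmgcs1 and this motif were chosen after the data were seen.
Insig1: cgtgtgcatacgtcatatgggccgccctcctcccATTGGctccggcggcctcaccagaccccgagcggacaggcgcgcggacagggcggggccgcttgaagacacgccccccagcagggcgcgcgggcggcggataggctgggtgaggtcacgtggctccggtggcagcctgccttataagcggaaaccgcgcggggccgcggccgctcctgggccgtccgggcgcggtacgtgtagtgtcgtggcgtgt
Hmgcs1: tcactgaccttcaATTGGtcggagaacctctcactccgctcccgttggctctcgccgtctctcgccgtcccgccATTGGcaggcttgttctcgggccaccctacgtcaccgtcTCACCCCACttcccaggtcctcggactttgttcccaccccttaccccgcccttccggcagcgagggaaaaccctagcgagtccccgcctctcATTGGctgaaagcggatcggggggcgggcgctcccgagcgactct
All 16 cholesterol synthesis genes with a promoter in the table held CCAAT in the 300-base window, where 41.1% of all genes did. TCACNCCAC stood in 1 of the 16, Hmgcs1, and in 1.44% of all genes.

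Fatty acid synthesis genes rose as well, 19 of 25 with 0 lower and a median of 2.07. Scd1, the main hepatic stearoyl-CoA desaturase, had 10959, 2337 and 7629.8 CPM at 36W against 63.4, 54.0 and 101.2 CPM at 2D (6.58, SE 0.52, adjusted p = 2.9e-07). Fasn, fatty acid synthase, had 2174, 552 and 1054 CPM against 44.1, 41.1 and 76.4 CPM (4.55, SE 0.47, adjusted p = 3.7e-06), and Elovl6, which elongates palmitate, had 218, 117 and 139.5 CPM against 9.38, 9.06 and 15.6 CPM (3.80, SE 0.34, adjusted p = 8.5e-07). No library of either group crossed the other in these genes, and the 36W libraries differed several-fold among themselves in Scd1 and Fasn, with replicate 2 lowest. At 4W Fasn had 569.8, 1381 and 1011 CPM. Fatty acid oxidation and PPAR alpha targets were split, 8 of 32 higher and 11 lower, or 7 lower without 36W replicate 3 (median -0.30): Fabp1, the liver fatty acid binding protein, had 1464, 1674 and 566 CPM at 36W against 119, 143 and 207 CPM at 2D (2.98, SE 0.33, adjusted p = 7.6e-06), and Cyp4a14, a fatty acid hydroxylase, had 54.1, 3.06 and 46.3 CPM against 1035, 1681 and 528 CPM (-4.97, SE 0.85, adjusted p = 3.3e-04).

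**Figure D3:**
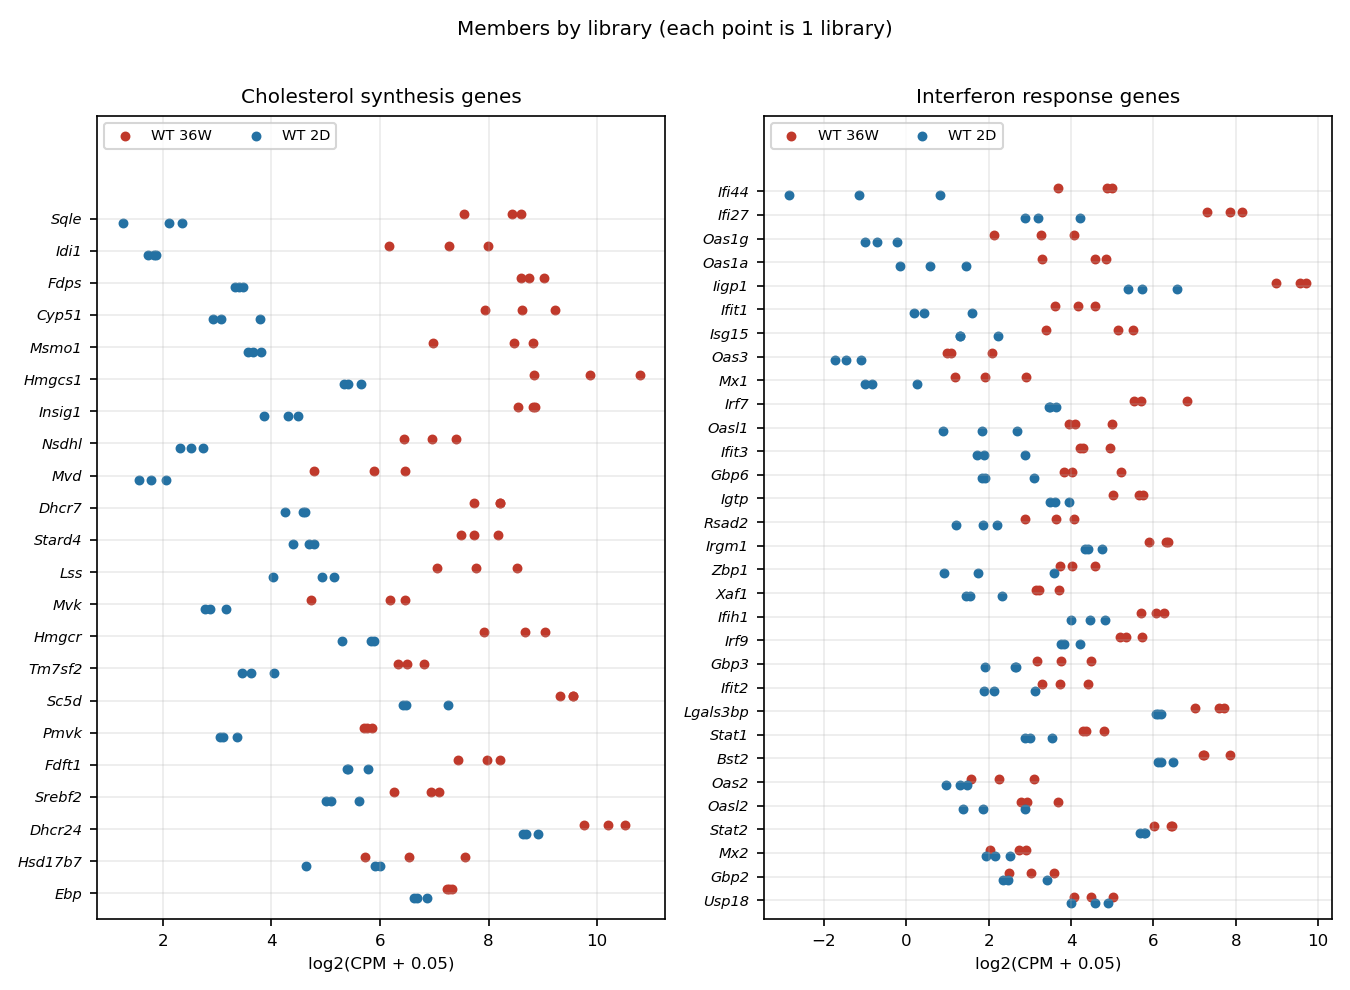
log2(CPM + 0.05) of 22 of the 24 cholesterol synthesis genes (left panel) and interferon response genes (right panel) in each WT 36W (red) and WT 2D (blue) library, in order of the log2 fold change. Of the 22 cholesterol synthesis genes drawn 21 have all 36W points to the right of all 2D points, and of the 31 interferon response genes 27 do.

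Interferon response genes rose in 27 of 31 cases with 0 lower and a median of 1.68. Ifi27, a mitochondrial interferon-induced protein, had 158, 233 and 285 CPM at 36W against 7.32, 9.16 and 18.5 CPM at 2D (4.27, SE 0.30, adjusted p = 7.4e-08). Iigp1, an immunity-related GTPase, had 506, 836 and 754 CPM against 41.7, 53.1 and 95.3 CPM (3.46, SE 0.26, adjusted p = 1.5e-07), and Irf9, the DNA-binding subunit of the type I interferon complex, had 36.5, 40.2 and 52.5 CPM against 14.1, 13.4 and 18.6 CPM (1.49, SE 0.17, adjusted p = 6.9e-06). All 3 separated the groups. At 4W Ifi27 had 152, 119 and 127 CPM and Irf9 had 57.6, 55.7 and 47.7 CPM. Of the 3, Ifi27 alone was called between 36W and 4W (0.76, adjusted p = 0.0469).

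Of 16 antigen presentation genes 15 rose, with a median of 1.48. H2-K1, a class I chain whose reads can be shared with other H2 genes, had 1409, 1948 and 1500.1 CPM at 36W against 433, 642 and 489 CPM at 2D (1.63, SE 0.18, adjusted p = 6.4e-06). Nlrc5, the activator of class I genes, had 40.8, 38.1 and 40.5 CPM against 13.7, 17.0 and 12.8 CPM (1.46, SE 0.14, adjusted p = 1.4e-06), and Cd74, the class II chaperone of antigen-presenting cells, had 170.2, 113 and 165 CPM against 22, 22.4 and 53.2 CPM (2.2, SE 0.37, adjusted p = 2.6e-04). Chemokine genes were higher in 8 of 21 cases and lower in 2 (median 1.16); Cxcl9, which attracts T cells, had 78.3, 22.8 and 31.1 CPM against 2.15, 2.55 and 2.83 CPM (4.13, SE 0.54, adjusted p = 2.8e-05). Ccl21a, a chemokine of lymphatic vessels, had no count at 36W and 0.0898, 0.05 and 26.6 CPM at 2D, so its fall rested on 2D replicate 3.

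B and plasma cell genes rose in 9 of 15 cases with 0 lower and a median of 2.5. Igha, the IgA heavy chain, had 560.5, 161 and 47.9 CPM at 36W against 0.0449, 0 and 0 CPM at 2D, where it was at or under the floor (adjusted p = 5.6e-07). Jchain, which joins IgA molecules, had 145, 50.4 and 12 CPM against 0.314, 0.651 and 0.742 CPM (6.92, SE 0.87, adjusted p = 2.0e-05), and Igkc, the kappa light chain, had 297, 90.5 and 34.7 CPM against 3.05, 2.35 and 2.64 CPM (5.71, SE 0.69, adjusted p = 1.5e-05). The 36W libraries spanned over 10-fold in Igha with replicate 1 highest, and all exceeded the 2D libraries. The 15 genes summed to 610 to 1650 CPM at 36W and 104 to 184 CPM at 2D. In bulk RNA, more cells of a type and more RNA per cell cannot be told apart, here or for any cell type below. T and NK cell genes were called in 1 of 18 cases (5.56%) in each direction, beside 20.7% and 17.1% of all genes. The member that was higher was Cd8a, the T cell coreceptor. It lost its call without 2D replicate 3 (adjusted p = 0.071), 2D replicate 1 (0.051) or 36W replicate 1 (0.18).

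Macrophage genes were mixed, with 3 of 24 higher (12.5%) and 5 lower (20.8%, median -0.32), beside 20.7% and 17.1% of all genes. The resident Kupffer cell genes Timd4 and Marco, both receptors for dying cells or particles, fell: Timd4 had 1.41, 1.33 and 1.84 CPM at 36W against 15.7, 13.4 and 7.56 CPM at 2D (-3.01, SE 0.55, adjusted p = 5.4e-04), and Marco had 3.07, 1.83 and 6.39 CPM against 211, 201 and 86.9 CPM (-5.49, SE 1.14, adjusted p = 0.0015). The Kupffer cell gene Clec4f and the macrophage gene Adgre1 were not called. Mpeg1, the pore-forming protein of phagocytes, had 242, 330.3 and 558 CPM against 90.9, 81.4 and 55.3 CPM (2.31, SE 0.30, adjusted p = 2.9e-05), and Ccr2, the monocyte chemokine receptor, had 3.60, 6.87 and 6.14 CPM against 1.57, 1.00 and 2.6 CPM (1.67, SE 0.38, adjusted p = 0.0029). The summed level of the 24 genes was 724 to 1650 CPM at 36W, highest in replicate 3, and 756 to 1210 CPM at 2D. These counts turned on single libraries: 11 members were lower without 36W replicate 3, 2 without 2D replicate 1 and 3 without 2D replicate 2 or 36W replicate 2. Without 36W replicate 1, 6 were higher and 2 lower. Of 13 neutrophil granule genes 1 rose (7.69%) and 2 fell (15.4%), or 6 fell without 36W replicate 3. Ltf, lactoferrin, had 0.527, 0.494 and 0.696 CPM at 36W against 107, 78.5 and 32.2 CPM at 2D (-6.99, SE 0.91, adjusted p = 5.3e-05). Embryonic globins were at or near 0, Hbb-y and Hba-x having no count in the 6 libraries. Of 13 tested erythroid genes 2 rose (15.4%) and 1 fell (7.69%), shares below those over all genes. The gene that fell was Tfrc, the transferrin receptor. It had 38.3, 49.7 and 106 CPM against 328, 186 and 163 CPM (-1.81, SE 0.37, adjusted p = 0.0014).

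Collagen, stellate cell and fibroblast genes were lower in 23 of 28 cases with 1 higher and a median of -1.96. Their summed level was 3160 to 4630 CPM at 36W, and 4970, 5450 and 12200 CPM in 2D replicates 1, 2 and 3. Postn, periostin, had 11.6, 27.4 and 22.9 CPM at 36W against 141, 151 and 167 CPM at 2D (-2.89, SE 0.31, adjusted p = 5.7e-06), and Dcn, the collagen-binding proteoglycan decorin, had 70.8, 74.3 and 118 CPM against 373, 369 and 389 CPM (-2.10, SE 0.20, adjusted p = 1.2e-06). Pdgfra, a receptor of mesenchymal cells, had 3.60, 5.83 and 5.25 CPM against 26.3, 27 and 38.7 CPM (-2.65, SE 0.33, adjusted p = 2.1e-05). In these 3 every 36W library was below every 2D library, and 2D replicate 3 was the highest of its group. The count of 23 fell to 13 without 2D replicate 3, to 15 without 36W replicate 1 and to 9 without both. Col22a1, a collagen of tissue junctions outside the list, had no count at 36W and 8.17, 4.95 and 2.13 CPM at 2D, and was at least 32.5-fold lower. Fbn2, the fibrillin of developing tissues, had 0.0878, 0.0988 and 0 CPM against 5.52, 5.55 and 21.1 CPM (adjusted p = 1.9e-05, with 36W under the floor), and Itm2a, a membrane protein of developing cartilage and lymphocytes, had 0.395, 0.247 and 0 CPM against 23.1, 24.8 and 48.7 CPM (-7.07, SE 0.75, adjusted p = 4.9e-06).

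Bile duct and progenitor genes were split, with 4 of 19 higher (21.1%) and 4 lower (21.1%) and a median of 0.34, shares near the 20.7% and 17.1% over all genes. The 4 that fell were Krt19, Krt7, Epcam and Cldn4, and the 4 that rose were Sox9, Krt18, Cdh1 and Anxa4. Sox9, a transcription factor of ducts and progenitors, had 17.0, 49.2 and 18.4 CPM at 36W against 6.11, 5.40 and 16 CPM at 2D (1.62, SE 0.41, adjusted p = 0.0053). Krt19 had 0.351, 0.395 and 1.01 CPM at 36W, and without 2D replicate 3 its change was -1.95 (adjusted p = 0.10), as Krt7 also lost its call (-1.31, adjusted p = 0.19). Without that library 8 members were higher and 2 lower, and without 2D replicate 2 the number higher was 2. Endothelial genes were called higher in 1 of 22 cases (4.55%) and lower in 5 (22.7%), with a median of -0.18. Rspo3, a Wnt enhancer, and Wnt2, a Wnt ligand, are genes of central vein endothelium. Their log2 fold changes were -2.04 (adjusted p = 1.3e-04) and -1.84 (adjusted p = 7.7e-04). Axin2, the general target of Wnt signalling, had 2.59, 2.27 and 1.90 CPM at 36W against 15.9, 12 and 13 CPM at 2D (-2.59, SE 0.44, adjusted p = 2.8e-04), and Hgf, the hepatocyte growth factor of stellate cells, had 3.95, 4.15 and 5.44 CPM against 18, 16.4 and 13.2 CPM (-1.82, SE 0.28, adjusted p = 1.2e-04).

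Cell cycle and replication genes were lower at 36W. Of 40, 26 fell and 0 rose, with a median of -1.57, and in 36 of 40 every 36W library was below every 2D library, where 20.1% of all genes were. Rrm1, the large subunit of ribonucleotide reductase, had 18.4, 14.7 and 9.43 CPM at 36W against 53.2, 48.4 and 53.3 CPM at 2D (-1.86, SE 0.24, adjusted p = 2.5e-05). Its partner Rrm2 had 21.8, 13.7 and 11 CPM against 61.0, 52.5 and 62.7 CPM (-1.91, SE 0.27, adjusted p = 6.1e-05). Mcm7, a subunit of the replicative helicase, had 12.9, 14.8 and 10.1 CPM against 40.5, 38.5 and 50.5 CPM (-1.77, SE 0.15, adjusted p = 4.5e-07). Hells, a chromatin remodeller, had 1.76, 3.11 and 1.01 CPM against 13.3, 8.21 and 16.1 CPM (-2.66, SE 0.38, adjusted p = 7.1e-05). The summed level of the 40 genes was 389, 415 and 179 CPM in 36W replicates 1, 2 and 3, against 858 to 1100 CPM at 2D, so replicate 3 was lowest; without it 17 genes were called lower. At 4W the sum was 301 to 592 CPM, so the late livers were not above that range.

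The promoter of Rrm1 is shown as that of a replication gene (chr7:102441445-102441694, plus strand, RefSeq, GRCm38.p6, 250 bases before the start). Capitals mark CCAAT and TTCCCGC, an E2F site.
Rrm1: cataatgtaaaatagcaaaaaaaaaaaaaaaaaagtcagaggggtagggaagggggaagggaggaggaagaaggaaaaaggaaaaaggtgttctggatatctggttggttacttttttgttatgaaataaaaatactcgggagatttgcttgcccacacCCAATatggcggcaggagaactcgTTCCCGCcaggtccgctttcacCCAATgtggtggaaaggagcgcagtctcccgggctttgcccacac
CCAAT stood in 27 of 33 cell cycle genes with a promoter in the table (81.8%) against 41.1% of all genes. TTGGCGC, also an E2F site, stood in 9 of 33 (27.3%) against 2.85%, TTCCCGC in 6 (18.2%) against 5.29%, and TTTGAA, the cell cycle homology element, in 15 (45.5%) against 20.2%. The E2F letters were not particular to this list. TTCCCGC stood in 18.8% of cholesterol synthesis and 18.5% of oxidative phosphorylation genes, and in 4.55% to 5.88% of interferon, fetal and imprinted genes. TTGGCGC stood in 17.6% of imprinted and 14.8% of oxidative phosphorylation genes, and in 0 cholesterol, fetal and interferon genes. CCAAT on the other strand reads ATTGG, whose end can overlap the start of TTGGCGC. No match shows binding.

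Targets of p53 fell in 22 of 28 cases with 1 higher and a median of -1.36. Cdkn1a, the cell cycle inhibitor p21, had 13.5, 27.8 and 51.4 CPM at 36W against 485, 381 and 246 CPM at 2D (-3.59, SE 0.43, adjusted p = 1.5e-05). Phlda3, an inhibitor of AKT, had 3.91, 10.6 and 14.4 CPM against 94.9, 75.3 and 64.7 CPM (-3.04, SE 0.44, adjusted p = 6.8e-05), and Ccng1, cyclin G1, had 38.8, 53.7 and 55.4 CPM against 251, 181 and 125 CPM (-1.91, SE 0.23, adjusted p = 1.3e-05). The groups did not overlap in these genes, and 2D replicate 3 was the lowest of its group in all 3. At 4W Cdkn1a had 70.9, 68.4 and 106 CPM, above the 36W level (36W over 4W -1.41, adjusted p = 0.0199). Trp53 itself was at 31.4, 35.4 and 30.5 CPM and 25.4, 21.6 and 34.3 CPM, without a call. Of 27 DNA repair genes 11 fell, or 7 without 36W replicate 3, and 4 rose, or 2 without 2D replicate 2 (median -0.33): Mgmt, which removes alkyl groups from guanine, had 5.97, 8.55 and 10.4 CPM at 36W against 19.6, 19.1 and 19.3 CPM at 2D (-1.22, SE 0.23, adjusted p = 6.5e-04).

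**Figure D4:**
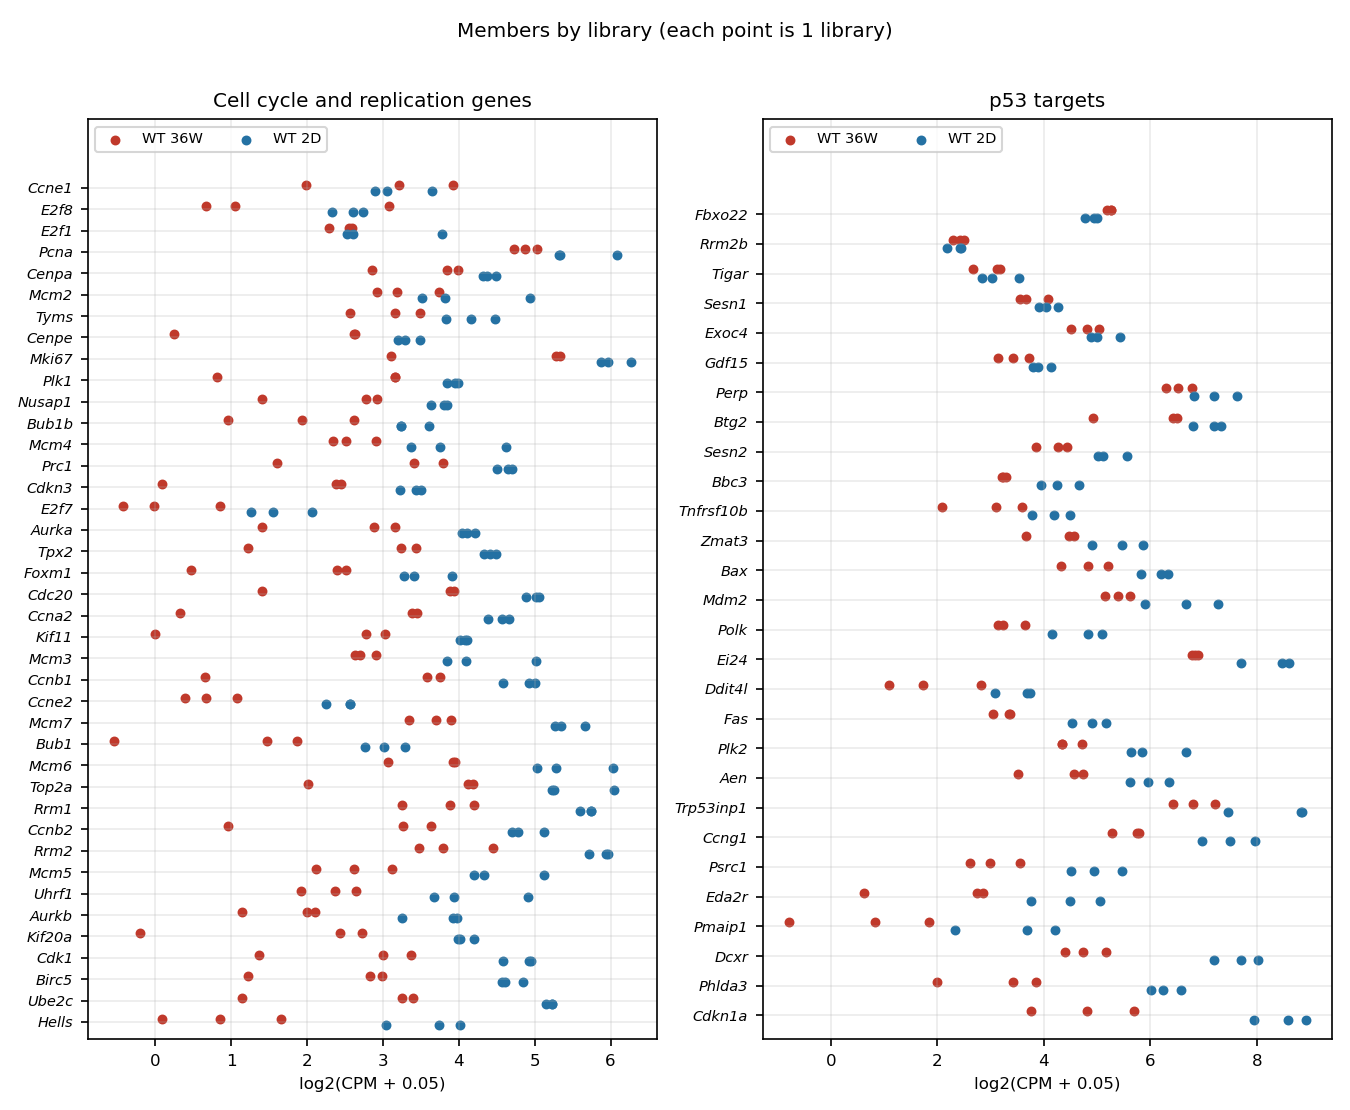
log2(CPM + 0.05) of the 40 cell cycle and replication genes (left panel) and 28 p53 targets (right panel) in each WT 36W (red) and WT 2D (blue) library, in order of the log2 fold change. In 36 of 40 cell cycle genes and 23 of 28 p53 targets all 36W points lie to the left of all 2D points.

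Liver tumour markers rose in 19 of 34 cases and fell in 2, with a median of 1.18. Cdkn2b, the inhibitor p15, had 5.97, 42.7 and 20.1 CPM at 36W against 0.314, 0.25 and 0.51 CPM at 2D (5.97, SE 0.82, adjusted p = 4.4e-05). Ly6d, a GPI-anchored surface protein, had 35.9, 191 and 125 CPM against 9.02, 6.46 and 8.02 CPM (3.90, SE 0.63, adjusted p = 2.0e-04), and Tff3, a trefoil peptide of mucous epithelia, had 292, 69.3 and 322 CPM against 16.3, 18.6 and 8.77 CPM (3.97, SE 0.55, adjusted p = 5.1e-05). In each of the 3 all 36W libraries exceeded all 2D and all 4W libraries; at 4W Tff3 had 9.34, 5.37 and 12.2 CPM. Clu, the chaperone clusterin, had 2309, 4409 and 3636 CPM against 671, 931 and 1403 CPM (1.78, SE 0.26, adjusted p = 6.6e-05). The members that fell were S100a6 and Vim, which stellate and other mesenchymal cells also express and which lost their call without 2D replicate 3; Myc, Cd44, Spink1 and Nqo1 were among the 13 not called.

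Unfolded protein and integrated stress response genes rose in 19 of 24 cases and fell in 1, with a median of 1.73. Dnajb9, a chaperone of the endoplasmic reticulum, had 89.9, 188 and 142 CPM at 36W against 22, 31.5 and 31.3 CPM at 2D (2.31, SE 0.25, adjusted p = 6.0e-06). Xbp1, the transcription factor of secretory cells, had 356, 481 and 455 CPM against 88.3, 88.4 and 157 CPM (1.96, SE 0.23, adjusted p = 1.0e-05), and Trib3, a pseudokinase induced by ATF4 and CHOP, had 22.3, 74.1 and 67.0 CPM against 6.6, 6.51 and 3.15 CPM (3.33, SE 0.43, adjusted p = 2.5e-05). Plasma cells also express Xbp1 and chaperones such as Dnajb9, and their immunoglobulin genes rose in the same libraries. Among the 36W libraries, replicate 1 was highest in Igha and lowest in Dnajb9, Xbp1 and Trib3. The part of plasma cells in the result was not tested. In acute phase genes 12 of 25 rose and 3 fell (median 0.58); Cp, the copper carrier ceruloplasmin, had 3273, 4461 and 4401 CPM at 36W against 829.9, 1035 and 904 CPM at 2D (2.13, SE 0.16, adjusted p = 1.8e-07).

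Genes listed as NRF2 targets rose in 35 of 47 cases and fell in 3, or 5 without 36W replicate 3, with a median of 1.46; the list also holds genes that other factors drive. Tkt, transketolase, had 236, 161 and 231 CPM at 36W against 58.1, 57.3 and 64.3 CPM at 2D (1.80, SE 0.14, adjusted p = 1.7e-07), and Slc48a1, a haem transporter, had 153, 288 and 312 CPM against 46.2, 40.3 and 44.6 CPM (2.52, SE 0.23, adjusted p = 9.7e-07). Nqo1, the quinone reductase, was not called, at 22.6, 32.4 and 103 CPM and 29.1, 26.3 and 14.2 CPM. The list summed to 15100, 13300 and 32200 CPM in 36W replicates 1, 2 and 3, so replicate 3 was highest, against 6640 to 8730 CPM at 2D.

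Several pathways of adult liver metabolism were lower. All 36 nuclear oxidative phosphorylation genes tested had a negative log2 fold change, 35 of them were called, and the median was -0.73; Cyc1, cytochrome c1, had 140.1, 105.4 and 104 CPM at 36W against 280.0, 251 and 225 CPM at 2D (-1.11, SE 0.13, adjusted p = 1.2e-05). Ribosomal protein genes did not show this, with 1 of 40 lower and 0 higher (median -0.13), but with library size alone 33 were lower. Gluconeogenesis and amino acid breakdown genes fell in 12 of 21 cases and rose in 2 (median -1.21). Got1, the cytosolic aspartate aminotransferase, had 83.6, 71.9 and 119 CPM against 1599, 2004 and 540.1 CPM (-3.91, SE 0.43, adjusted p = 6.7e-06), and Ppargc1a, the coactivator of fasting genes, had 9.66, 7.51 and 5.57 CPM against 64.7, 86.6 and 33.4 CPM (-3.01, SE 0.39, adjusted p = 2.8e-05).

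Of 19 urea cycle and periportal genes 8 fell and 3 rose (median -0.51). Ass1, argininosuccinate synthase, had 1093, 463 and 1357 CPM at 36W against 5647, 5487 and 2908 CPM at 2D (-2.27, SE 0.34, adjusted p = 1.0e-04), while Pigr, the receptor that carries IgA into bile, had 684, 836 and 592 CPM against 7.0, 16.8 and 31.7 CPM (5.25, SE 0.51, adjusted p = 2.2e-06). Pericentral and Wnt-driven genes fell in 11 of 26 cases and rose in 4 (median -0.64); Aldh1a1, a retinal dehydrogenase, was among the 4, with 689, 353 and 249 CPM against 44.8, 30.6 and 47.2 CPM (3.40, SE 0.37, adjusted p = 5.6e-06). At 4W Aldh1a1 had 1187, 1368 and 1525 CPM, and the 36W level was below that (-1.66, adjusted p = 0.0027). In serine and one-carbon metabolism 9 of 25 fell, or 5 without 36W replicate 2, and 3 rose (median -0.03): Cth, which makes cysteine, fell (log2 fold change -2.22, adjusted p = 2.4e-05), and the serine synthesis enzymes Phgdh, Psat1 and Psph rose. Phgdh had 38.9, 29.1 and 10.4 CPM at 36W against 2.47, 2.15 and 7.19 CPM at 2D (2.73, SE 0.47, adjusted p = 3.5e-04) and 0.217, 0.665 and 0.26 CPM at 4W, so it was above both earlier times.

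Of 25 bile acid synthesis and transport genes 6 rose (24%) and 6 fell (24%), with a median of -0.16. Over all genes 20.7% rose and 17.1% fell. Cyp7b1, the oxysterol hydroxylase of the alternative pathway, had 85.4, 9.78 and 24.9 CPM at 36W against 0.359, 0.701 and 1.30 CPM at 2D (5.66, SE 0.80, adjusted p = 5.9e-05), and Slco1a4, an organic anion uptake carrier, had 15, 9.19 and 6.65 CPM against 69.7, 85.4 and 80.7 CPM (-2.92, SE 0.37, adjusted p = 2.2e-05). Of 28 hepatocyte transcription factors 9 rose (32.1%) and 4 fell (14.3%), with a median of 0.25. Of 40 genes of Wnt, Notch, Hippo and TGF beta signalling 10 rose (25%) and 9 fell (22.5%), with a median of 0.12. The shares of these signalling genes were near those over all genes. Egfr, the EGF receptor, had 792, 279 and 217 CPM against 129, 152 and 108 CPM (1.73, SE 0.34, adjusted p = 0.0011). Without 2D replicate 3 the signalling genes that fell numbered 4.

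Clock genes were called in both directions, 7 of 19 higher and 5 lower, or 3 lower without 36W replicate 2 (median 0.47). Dbp, an output of the clock, had 138, 107 and 100.03 CPM at 36W against 5.07, 6.71 and 10 CPM at 2D (3.99, SE 0.69, adjusted p = 3.7e-04), and Arntl, which encodes the activator BMAL1, had 2.2, 4.10 and 3.55 CPM against 31.5, 23.4 and 14.2 CPM (-2.82, SE 0.51, adjusted p = 5.2e-04). The hour of collection is not given in the sources used here, so time of day and weeks after DEN cannot be told apart for these genes. Immediate early genes, which respond within minutes of handling, rose in 5 of 20 cases (25%) and fell in 4 (20%). Over all genes the shares were 20.7% and 17.1%. The number that fell was 2 without 36W replicate 1 or 2 or 2D replicate 1 or 2. Egr1 had 141, 171 and 157 CPM against 17.5, 13 and 37.8 CPM (2.78, SE 0.58, adjusted p = 0.0016).

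The same times were compared in KO mice. Nfe2l2, the gene targeted in KO, had 42.9, 37.8 and 43.0 CPM at KO 36W against 110.4, 127 and 104.6 CPM at WT 36W, and 43.3, 66.3 and 67.8 CPM at KO 2D against 73.2, 70.2 and 76.2 CPM at WT 2D. All KO libraries were below all WT libraries at both times, and whether the counted reads lie in the deleted part of the gene is not given. In KO, 17.8% of genes were higher and 15.8% lower at 36W than at 2D, 33.7% in either direction, and the change differed between KO and WT in 0.612% of genes in the positive direction and 2.43% in the negative, 3.04% in all. All 24 cholesterol synthesis genes rose in KO too, with a median of 3.41, and Igf2 and Afp had log2 fold changes of -9.17 and -3.64 there, with no difference called from WT (adjusted p = 0.91 and 0.397). Peg3 differed: it had 20.7, 21.4 and 17.5 CPM at KO 36W against 204, 176 and 177 CPM at KO 2D, a log2 fold change of -3.22 in KO and -6.19 in WT (difference 2.96, adjusted p = 0.0057). Bex1 had 20.1, 26.8 and 23 CPM at KO 36W against 4.85, 1.67 and 3.45 CPM at KO 2D, a log2 fold change of 2.80 in KO and -1.76 in WT (difference 4.56, adjusted p = 0.043), and its WT value includes the 36W library with no count. Of the p53 targets 8 of 28 fell in KO and 22 in WT, and the difference itself was called for 1 of them; of the NRF2 targets 18 of 47 rose in KO and 35 in WT, and the difference was called for 5. Fatty acid oxidation and PPAR alpha targets had the most members with a called difference among these lists, 12 of 32.

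**Figure D5:**
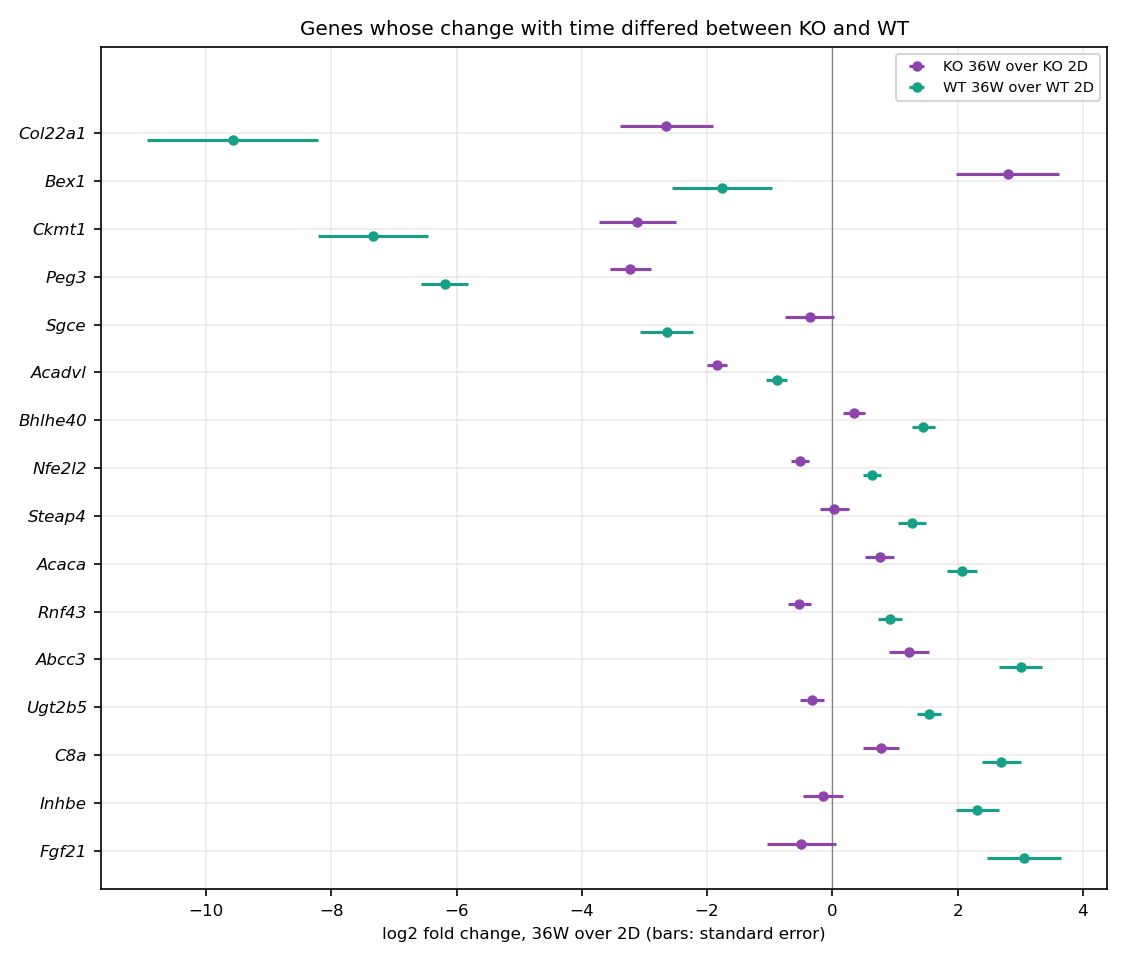
log2 fold change of 36W over 2D in KO (purple) and in WT (green) for the 16 named genes whose change differed between the genotypes at an adjusted p under 0.05, with bars for the standard error. Peg3, Sgce and Bex1 are less negative or positive in KO, while Fgf21, Inhbe and Ugt2b5 lie at -0.49, -0.15 and -0.32 in KO and above 0 in WT; the WT value of Col22a1 rests on 36W libraries with no count.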

How the data were processed

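Livers of WT and KO mice were profiled by RNA sequencing of total RNA (TruSeq V2, PureLink extraction, per the labels' protocols). The authors deposited raw counts per gene for 35275 genes in 18 libraries. The submitters' processing notes name STAR 2.5, HTSeq, DESeq2 and mm10, without roles or settings, and the strand of counting is not given in the sources used here, so antisense partners and near-identical copies can share reads. Names turned into dates by a spreadsheet (27) were repaired by gene ID.

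edgeR 4.0.16 in R 4.3.3 fitted 6 group means to all 18 libraries (TMM, filterByExpr, quasi-likelihood F test, Benjamini-Hochberg over 14877 genes, threshold 0.05). CPM use its TMM factors; SE is the log2 fold change divided by the root of F. Differences between genotypes used the interaction contrast. An exact permutation of 3 against 3 cannot give a p below 0.1, so single genes rest on this fit. Totals were 17.6 to 24.2 M counts in the 6 libraries; floors of 3 counts cover counting error only. No pair of libraries within a group agreed within counting noise (chi-square per degree of freedom 17.5 to 174). Named genes were the 10 largest called rises and falls (mean log2 CPM not under 1, groups not overlapping, no clone-type name), up to 6 called members per list with the smallest p, and all tested imprinted, fetal and Afp-regulator genes; others are said to be chosen after seeing values. Comparison, members and 40 lists were chosen with earlier results of these data known. Promoters are from RefSeq (GRCm38.p6), found for 16 of 24 cholesterol, 33 of 40 cell cycle and 20 of 28 fetal genes. Alternatives included DESeq2 1.42.0 and limma 3.58.1 (voom). A few members of the lists are counted but not reported by name here. Scripts were tested on simulated counts. Figures used Python 3.11.15 and matplotlib 3.10.9.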

Additional observations from a re-analysis of the deposited data

Results flagged for a closer look

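The change between 36W and 2D differed between KO and WT for 16 named genes, by the interaction test of edgeR (453 of 14877 genes in all). Values are the KO minus WT difference of the log2 fold change of 36W over 2D. A difference was called for 2 of 22 imprinted genes, Peg3 (2.96, adjusted p = 0.0057) and Sgce (2.28, 0.042), and for 1 of 28 fetal and oncofetal genes, Bex1 (4.56, 0.043), against 3.04% of all genes. Sgce had 4.48, 21.6 and 26.9 CPM at KO 36W against 18, 23.2 and 27.1 CPM at KO 2D, and 4.52, 2.92 and 3.55 CPM at WT 36W against 20.2, 21.9 and 27 CPM at WT 2D, so the WT groups separated and the KO groups overlapped. The collagen gene Col22a1 (6.92, adjusted p = 0.0497) and Ckmt1, a mitochondrial creatine kinase (4.22, 0.0496), were also positive, just under the threshold, with 36W levels of WT at or under the floor.

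Negative differences were found for the hepatokine Fgf21 (-3.56, adjusted p = 0.028), the hepatic activin subunit Inhbe (-2.46, 0.015), the complement gene C8a (-1.92, 0.023) and the glucuronosyltransferase Ugt2b5 (-1.86, 0.0054). Fgf21 had 6.20, 4.81 and 5.47 CPM at KO 36W against 3.13, 13.1 and 6.95 CPM at KO 2D, and 13.2, 27.8 and 5.13 CPM at WT 36W against 2.2, 2.0 and 1.30 CPM at WT 2D. The conjugate exporter Abcc3 had a difference of -1.78 (0.044), the Wnt inhibitor Rnf43 -1.45 (0.014), acetyl-CoA carboxylase Acaca -1.32 (0.044), the metalloreductase Steap4 -1.24 (0.048), Nfe2l2 itself -1.16 (0.011), the clock repressor Bhlhe40 -1.1 (0.031) and the acyl-CoA dehydrogenase Acadvl -0.95 (0.036). Nfe2l2 is the gene targeted in the KO mice.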

How the results depend on the processing

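DESeq2, limma-voom, DESeq2 size factors, other filters on low counts and the block of replicate number within genotype over 18 libraries kept both counts within 1.5 times of 3073 higher and 2546 lower. The 6 libraries alone gave 1645 and 1341, a fold of at least 2 gave 1362 and 1561, and an adjusted p under 0.01 left 1403 lower. Library size alone gave 1451 higher and 5612 lower. Leaving out 1 library gave 2417 to 3118 higher and 2014 to 2338 lower, and leaving out 36W replicate 1 and 2D replicate 3 together, added after the data were seen, gave 3032 and 2284. The replicate block in the 6 libraries alone gave 932 and 650. Same-numbered libraries had correlations of -0.0322, -0.138 and -0.099 across genes, and differently numbered ones -0.0531 to 0.119. These are correlations of deviations from means of 3 libraries, which constrain one another. They showed no pairing by number but cannot exclude one. No named gene changed direction while called under any setting listed; 6 to 12 lost their call without 1 library, 18 without both 36W replicate 1 and 2D replicate 3, 15 with library size alone, 19 with limma-voom, 25 with the 6 libraries alone and 55 with the block in them. With library size alone, endothelial genes were lower in 12 cases, bile acid genes in 10 and repair genes in 16. Of the 46 early-gene candidates, library size alone placed 23 below 2D and not above 4W, and Scd2 alone above both. Without 36W replicate 1, bile acid genes were lower in 9 cases. The causes were not tested.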
